A study of Drosophila melanogaster with 136 samples.

Results

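The apoptosis genes described here are the 10 core members of the fly cell death pathway, hid, rpr, grim, skl, Dronc, Dark, Drice, Dcp-1, Diap1 and p53, picked by their FlyBase identifiers out of the 17477 genes counted in each mRNA table. The series concerns microRNA degradation directed by transcripts in Drosophila and measured poly(A) RNA in 68 libraries and small RNAs in others. In S2 cells, an established line from late embryos with hemocyte-like features, 3 WT clones stood beside 3 clones labelled dora without treatment. The dora gene encodes the fly counterpart of ZSWIM8, the part of a ubiquitin ligase that recruits its substrates. In a second set of libraries, 3 WT and 3 dora clones received double-stranded RNA against Ago1 or, as control, against GFP. The dose was 2 µg in each of 2 transfections 3 days apart, with collection 4 days after the second. The labels do not say whether these are the same clones as the untreated ones. Another set held 2 libraries each of WT cells and of 5 trigger lines labelled ago1, h, kah, wgn and zfh1. Embryos of the fly lines dora[A] and dora[B] and their paired wild types were collected at 8-12, 12-16 and 16-20 h with 2 libraries per genotype and time. Embryos of a CR43432 mutant, labelled mut, and of its wild type were collected at the same times. This wild type was also collected at 0-2 and 2-4 h. Each group had 2 libraries, except for a lone library per genotype at 16-20 h. Replicates were clonal S2 lines or separate fly lines, so a clone or line difference enters the spread. The titles number the embryo libraries by line in the CR43432 set and by replicate in the dora[A] and dora[B] sets. The sources used here do not give the molecular nature of the alleles or the zygosity of the embryos.

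Fly apoptosis is held in check by Diap1, an inhibitor of apoptosis protein that binds caspases and marks them for ubiquitination. The products of hid, rpr, grim and skl, the IAP antagonists, bind Diap1 and release the initiator caspase Dronc, which the adaptor Dark assembles into an apoptosome. Dronc then activates the effector caspases Drice and Dcp-1. The transcription factor p53 activates IAP antagonist genes, rpr among them, after DNA damage. Many embryonic cells die in mid-embryogenesis, and the IAP antagonist genes are known for being switched on by transcription in cells about to die.

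In the dm6 annotation of RefSeq the 4 IAP antagonist genes are neighbours on chromosome 3L. Their order is hid (FBgn0003997, 18167745 to 18185641), grim (FBgn0015946, 18302719 to 18304417), rpr (FBgn0011706, 18397535 to 18398435) and skl (FBgn0036786, 18438561 to 18439942), a span of 272 kb. Dronc (FBgn0026404, 9968479 to 9971002) and Diap1 (FBgn0260635, 16038410 to 16051034) are on 3L too. Dark (FBgn0263864, 17020027 to 17026703) and Dcp-1 (FBgn0010501, 23551313 to 23553547) are on 2R. Drice (FBgn0019972, 29799658 to 29801584) and p53 (FBgn0039044, 23049657 to 23054082) are on 3R. Levels below are CPM, the reads of a gene scaled to library size, computed within each table, so a level compared across tables is a description, and CPM is not adjusted for gene length, so the genes are not ranked against each other. Differences are log2 fold changes with standard error (SE), and calls rest on p-values adjusted by Benjamini-Hochberg over all genes tested, with 0.05 as the threshold. Where libraries of groups are said not to overlap, the share of all genes that separate in that way was not counted. With so few libraries per group, such a separation describes these libraries and is no test.

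The mRNA libraries held 8.96 to 35.5 M counted reads. AGO1 fell on its knockdown in WT cells from 744, 491 and 573 to 218, 245 and 228 CPM (-1.39, adjusted p = 7.87e-06) and in dora cells from 478, 436 and 438 to 204, 198 and 205 CPM (-1.15, adjusted p = 3.16e-05). Dora mRNA itself stood at 117, 132 and 104 CPM in untreated dora clones against 129, 131 and 122 in WT, which overlap. With GFP RNAi it stood at 83.5, 111 and 84.8 CPM in dora clones and at 134, 136 and 138 in WT, with no overlap (-0.55, adjusted p = 0.0569). In the S2 tables the hemocyte genes srp, ush, crq, vkg and Ppn were present, while He, NimC1, lz and gcm had at most 8 reads in any 1 library. In bulk RNA, fewer cells with a transcript and less transcript per cell cannot be told apart.

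In wild-type embryos most of the genes followed 1 of 3 courses. The IAP antagonists hid, rpr, grim and skl were low in the first hours and highest at 8-16 h. The caspases Dronc, Drice and Dcp-1 were highest at 2-4 h and lower afterwards. Dcp-1 still stood at 82.2 to 117 CPM at 8-12 h, against 104 to 115 at 0-2 h, and at 31.4 to 53.4 at 12-16 h. Diap1 was several times higher from 8 h on than before. Of the other two, Dark was highest at 8-12 h, with a median of 148 CPM against 39.8 at 0-2 h and 43.6 at 16-20 h, and p53 was higher at 0-4 h, with medians of 22.3 and 22.5 CPM, than from 8 h on, with medians of 7.77 to 12.2. In the CR43432 wild type, hid stood at 8.1 and 16.3 CPM at 0-2 h, 42.9 and 28.8 at 2-4 h, 161 and 196 at 8-12 h, 53.6 and 58.6 at 12-16 h and 11.8 in the lone 16-20 h library. The libraries of neighbouring times did not overlap, and only the first and last times lay within the same range. Over all 3 wild types hid ran from 161 to 253 CPM at 8-12 h (median 214, n = 6) and from 8.49 to 22.1 at 16-20 h (median 18.7, n = 5). The plot of wild-type levels by age shows these courses for each library.

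**Figure D1:**
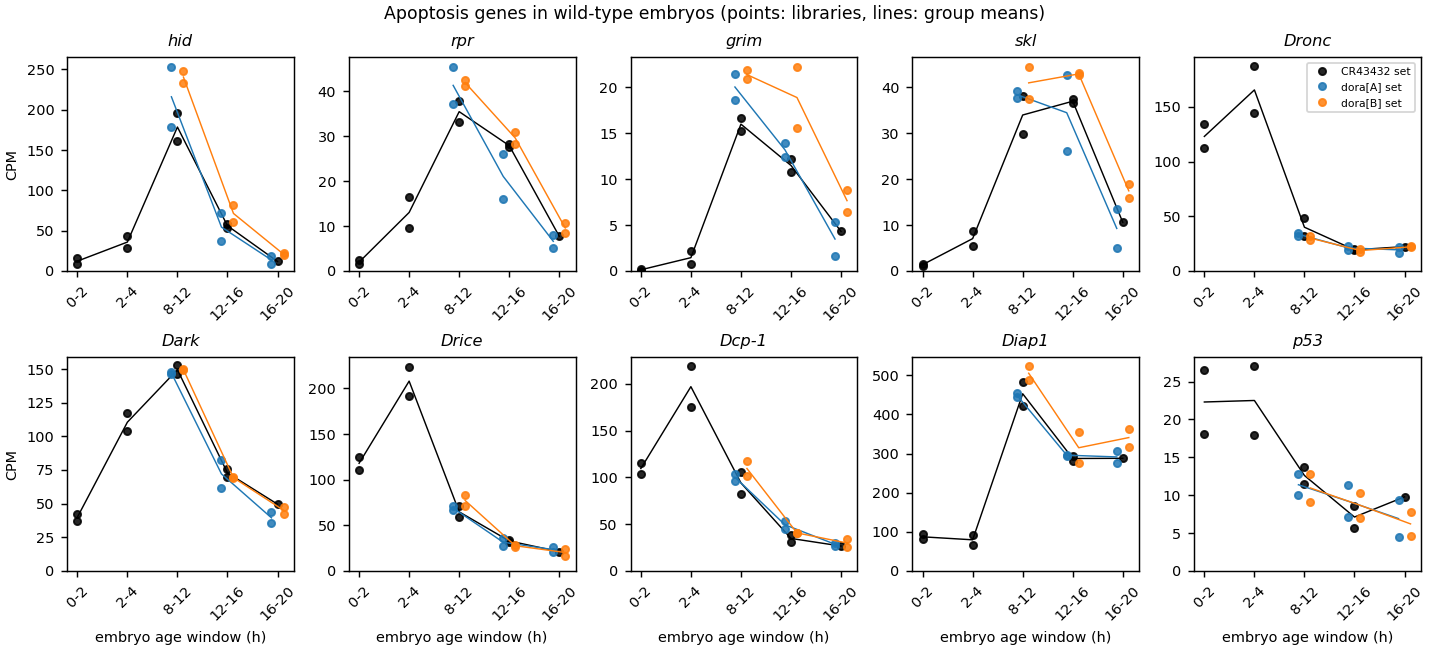
CPM of the 10 apoptosis genes (vertical axis, 1 panel per gene, starting at 0) against the embryo age window in hours in the wild types of the CR43432, dora[A] and dora[B] sets; points are libraries and lines join group means. The IAP antagonists hid, rpr, grim and skl peak between 8 and 16 h, Dronc, Drice and Dcp-1 peak at 2-4 h, and Diap1 stays at or above 276 CPM from 8 h on.

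From 0-2 to 2-4 h, 7 of the 10 genes were called higher and 0 lower in the CR43432 wild type, where 35.7% of all 11457 genes were called (16.4% higher), and the median change was 1.16 against 0 over all genes. All 4 IAP antagonists rose. rpr went from 2.41 and 1.53 to 16.5 and 9.54 CPM (2.73, SE 0.34, adjusted p = 8.36e-05), and skl from 1.54 and 1.19 to 8.63 and 5.46 (2.36, SE 0.34, adjusted p = 0.000238). The later libraries stood several times above the earlier ones in both genes. grim rose from 0 and 0.255 to 2.16 and 0.741 CPM (3.32, SE 0.84, adjusted p = 0.00909), and that call was lost without the first 2-4 h library (2.38, adjusted p = 0.0876). hid rose by 1.55 (SE 0.30, adjusted p = 0.00191). Of the caspase machinery, the adaptor gene Dark rose from 42.4 and 37.3 to 117 and 104 CPM (1.47, SE 0.18, adjusted p = 6.43e-05). The effector caspase genes rose less, Drice by 0.82 (SE 0.19, adjusted p = 0.00479) and Dcp-1 by 0.85 (SE 0.22, adjusted p = 0.01), and Dcp-1 lost its call without that same library (0.68, adjusted p = 0.0785). Dronc (0.43, adjusted p = 0.173), Diap1 (-0.13) and p53 (0.02) did not pass. Both later Dronc libraries were above the earlier ones, at 144 and 187 against 134 and 112 CPM, and Dronc was called with RLE scaling (0.71, adjusted p = 0.0263), without the filter (0.69, adjusted p = 0.0253), with DESeq2 (0.71, adjusted p = 0.015) and in a fit to these 4 libraries (0.52, adjusted p = 0.0489).

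Between 2-4 and 8-12 h the pathway split, with 6 genes called higher and 3 lower against a background of 59.3% of all genes (30.9% higher, 28.4% lower). The median over the 10 genes was 0.94 against 0.08 over all. grim rose by 3.48 (SE 0.53, adjusted p = 0.000172), hid by 2.32 (SE 0.30, adjusted p = 5.28e-05), skl by 2.27 (SE 0.29, adjusted p = 4.71e-05) and rpr by 1.45 (SE 0.30, adjusted p = 0.00132). Diap1, the inhibitor that these 4 proteins bind, rose with them, from 92 and 67.2 to 484 and 422 CPM (2.51, SE 0.19, adjusted p = 9.92e-07). The caspase genes went the other way. Dronc fell from 144 and 187 to 32 and 48 CPM (-2.05, SE 0.24, adjusted p = 2.27e-05). Drice fell from 224 and 192 to 58.7 and 70.8 (-1.68, SE 0.19, adjusted p = 2.03e-05), and Dcp-1 from 219 and 175 to 106 and 82.2 (-1.06, SE 0.22, adjusted p = 0.00146). None of these caspase libraries overlapped between the ages. Dark rose by 0.44 (adjusted p = 0.0476), a call that ended without any 1 of the 4 libraries (adjusted p 0.0594 to 0.149), and p53 gave -0.84 (adjusted p = 0.0582), which passed without the first 2-4 h library (-1.11, adjusted p = 0.0392). Maternal transcripts were falling over the same hours: the summed level of bcd, nanos, osk, smg and CycB was 8850 to 11400 CPM at 0-2 h, 4560 to 6250 at 2-4 h and under 1100 at 8-12 h in the 3 wild types, and its part in these changes was not tested.

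After 8-12 h no gene was called higher in any of the 3 wild types. From 8-12 to 12-16 h, 6 of 10 were lower in the CR43432 set (background 43.8%, 21.1% lower), 6 in the dora[A] set (37.6%, 15.0% lower) and 5 in the dora[B] set (38.5%, 15.8% lower). hid fell in each (-1.67, -1.99 and -1.75), as did Dark (-1.03, -1.03 and -1.11), Drice (-0.97, -1.13 and -1.48) and Dcp-1 (-1.44, -1.02 and -1.43). Diap1 also fell in each (-0.66, -0.60 and -0.68). Its call was lost without any of 3 of the 4 libraries in the CR43432 set, any 1 of the 4 in the dora[A] set and any of 3 of the 4 in the dora[B] set. In the dora[B] set it was also lost with the replicate number as a block (-0.69, adjusted p = 0.051). skl did not pass in any of the 3 over these hours, with 0.12, -0.16 and 0.07 (adjusted p = 0.733, 0.784 and 0.87). It ran from 29.8 to 44.4 CPM at 8-12 h (n = 6) and from 26.2 to 43.1 at 12-16 h (n = 6), overlapping ranges. From 12-16 to 16-20 h all 4 IAP antagonists fell. In the dora[A] wild type hid went from 71.6 and 37.2 to 18.7 and 8.49 CPM (adjusted p = 0.00612), rpr changed by -1.67, grim by -1.93, skl by -1.90 and Dark by -0.87 (5 lower, background 24.6%, 9.66% lower, 14.9% higher). In the dora[B] wild type the values were -1.78, -1.62, -1.31 and -1.30 for the IAP antagonists (4 lower, background 14.5%, 6.77% lower). Without 1 library the count was 3 to 4 and 1 to 4 at the first of these steps and 1 to 4 and 0 to 3 at the second in the dora[A] and dora[B] wild types, and 5 to 6 in the CR43432 set.

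In S2 cells the pathway was present below the level of the IAP antagonists. grim had 0 reads in all 6 untreated libraries, a total of 70.3 M counted reads, and skl had 0 as well; 3 reads, the limit that a count of 0 allows, correspond to 0.214 to 0.308 CPM per library. In the RNAi set grim had 0 reads in 12 libraries and skl 5 reads in 3 of them, and in the trigger set they had 1 and 0. hid ran from 0.186 to 3.21 CPM over the 8 WT libraries with no Ago1 knockdown (median 1.24) and rpr from 0.745 to 7.49 (median 2.46). The downstream genes were measured well in the same 8 libraries: Dronc at 63.4 to 94.7 CPM, Dark at 72.5 to 118, Drice at 76.5 to 97.3, Dcp-1 at 18.1 to 24.4, Diap1 at 261 to 451 and p53 at 17 to 32.9. Tests in these cells therefore cover 7 of the 10 genes in the untreated and trigger sets and 8 in the RNAi set.

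Untreated dora clones had less Dronc than WT clones. It stood at 39.5, 43.9 and 54.8 CPM against 77.3, 94.7 and 79.6, with no overlap (difference -0.86 with SE 0.15, adjusted p = 0.0359). It was the only 1 of 7 tested genes called (0 higher, 1 lower), where 2.73% of 7294 genes were called (1.77% lower), and the median over the 7 was -0.21 against 0 over all. The call was lost without WT clone 1 (-0.92, adjusted p = 0.099), WT clone 3 (-0.91, adjusted p = 0.0715), dora clone 1 (-0.76, adjusted p = 0.0906) or dora clone 2 (-0.83, adjusted p = 0.153), while the size of the difference changed little. hid was too low for the test: 8, 6 and 31 reads in WT clones against 0, 1 and 0 in dora clones. Summed over the clones, 45 reads against 1 give a WT to dora ratio of 38.2 (95% interval 6.52 to 1540, counting error only), and every WT clone stood above every dora clone. Without the filter on low counts hid was called (-4.80, SE 1.14, adjusted p = 0.0327). Diap1 went the other way, at 420, 433 and 418 CPM in dora against 337, 345 and 298 in WT (0.38, SE 0.10, adjusted p = 0.0809). All 3 dora clones were above all WT clones, and DESeq2 called it (adjusted p = 0.0066). DESeq2 called more genes in all, 389 higher and 448 lower of 7294. The other genes overlapped between genotypes or missed the threshold: Dark (-0.42, adjusted p = 0.218), Drice (-0.21, adjusted p = 0.303), Dcp-1 (0.19), rpr (-0.25) and p53 (0.15).

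With GFP RNAi, hid and Dronc were lower in dora than in WT cells. They were 2 of 8 tested genes (0 higher), where 1.18% of 7861 genes were called (0.916% lower) and the medians were -0.08 and 0.01. hid stood at 0.341, 0.262 and 0.112 CPM in dora and at 3.21, 2.15 and 1.89 in WT (-3.38, SE 0.52, adjusted p = 0.00768). Dronc stood at 29.2, 35.7 and 38.9 CPM in dora and at 77.2, 63.4 and 76.2 in WT (-1.06, SE 0.13, adjusted p = 0.00175). Neither gene overlapped, and both calls held without any 1 of the 6 libraries. Both sets number their clones 1 to 3 and the labels do not say whether these are the same clones, so the sets may not be independent. hid also differed among WT cells of separate sets: it was 0.587, 0.568 and 2.21 CPM in the untreated clones, and 0.186 and 0.335 in the WT libraries of the trigger set, which lie in the range of the dora clones with GFP RNAi. Diap1 was again above WT in every dora clone (0.27, SE 0.09, adjusted p = 0.162, and adjusted p = 0.0423 with DESeq2). rpr, Dark, Drice, Dcp-1 and p53 gave -0.13 to 0.

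**Figure D2:**
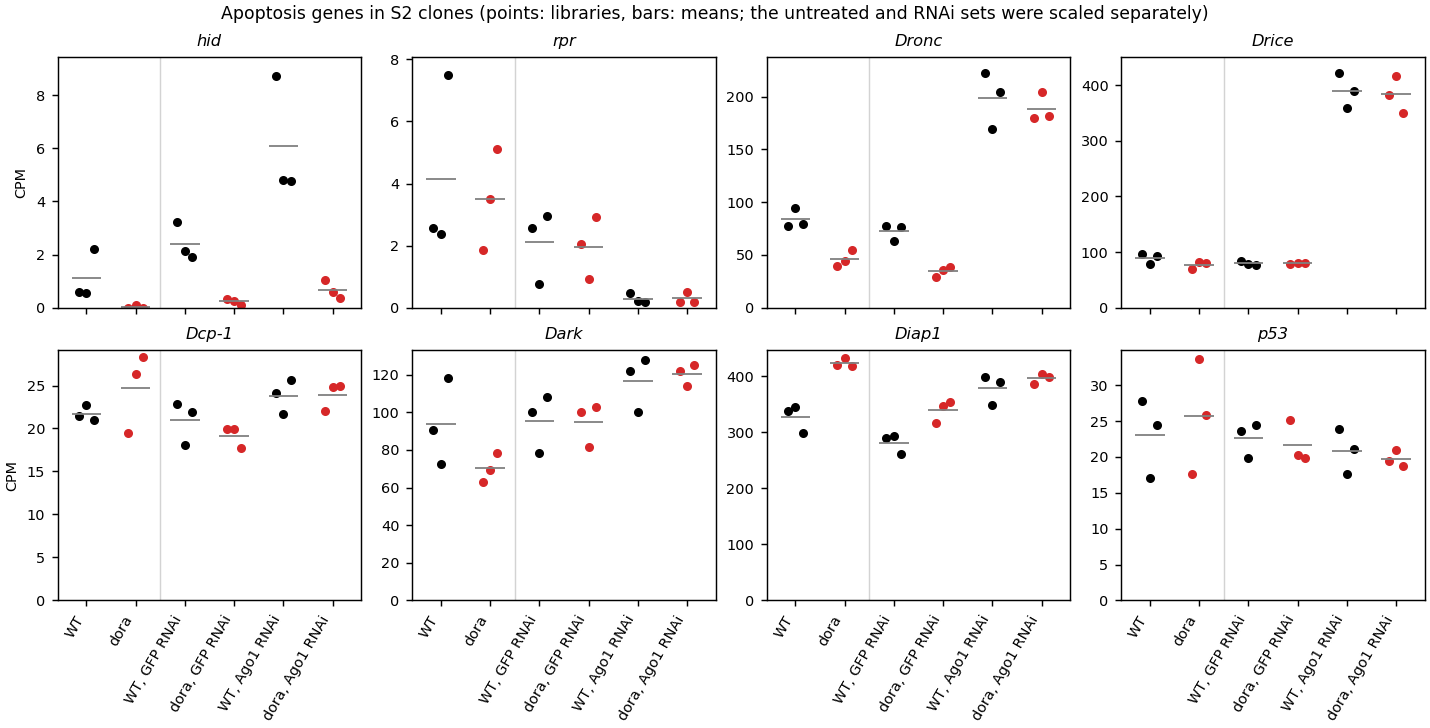
CPM (vertical axis, starting at 0) of the 8 apoptosis genes tested in S2 cells, by genotype and knockdown; points are the 3 clones of each group, black for WT and red for dora, bars are means, and the untreated and RNAi sets were scaled separately. hid and Dronc are lower in dora clones with no knockdown of Ago1, Drice and Dronc are high in every Ago1 knockdown library, and rpr is lowest there.

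Ago1 is the Argonaute that loads most fly microRNAs. Its knockdown raised the caspase genes Drice and Dronc in every clone and lowered rpr. Among WT cells 4 of 8 genes were higher and 1 lower, against 54.0% of all genes called (25.6% higher, 28.4% lower), with a median of 0.36 against -0.02. In dora cells 6 were higher and 1 lower, against 51.2% (24.6% higher, 26.7% lower), with a median of 0.33 against -0.01. With most genes called in each genotype, a call by itself sets a gene little apart from the rest, and the sizes are given below. The effector caspase gene Drice changed most by size relative to its error. It went from 84.1, 78.1 and 76.5 to 422, 359 and 389 CPM in WT cells (2.29, SE 0.09, adjusted p = 1.98e-08) and from 77.6, 80.6 and 80.1 to 382, 417 and 350 in dora cells (2.27, SE 0.09, adjusted p = 4.38e-08). The ratio of Ago1 to GFP RNAi within a clone was 5.02, 4.6 and 5.08 in WT and 4.92, 5.17 and 4.37 in dora.

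The initiator caspase gene Dronc rose from 77.2, 63.4 and 76.2 to 222, 169 and 204 CPM in WT cells (1.46, SE 0.13, adjusted p = 5.92e-06). In dora cells it rose from 29.2, 35.7 and 38.9 to 180, 204 and 182 CPM (2.44, SE 0.14, adjusted p = 2.81e-07). Dora cells thus started lower and reached the same range, with clone ratios of 2.88, 2.67 and 2.68 in WT and 6.16, 5.71 and 4.68 in dora. The difference of the effects, dora minus WT, was 0.99 (SE 0.18, adjusted p = 0.139). No gene of the 8 passed this test in the main edgeR fit, which holds no clone term, where 0.0763% of all genes did (0.0636% higher, 0.0127% lower). At an unadjusted p under 0.05 were 1 of the 8 genes and 369 of all 7861. Knockdowns of the same clone deviated together, and with the clone as a block in edgeR the difference for Dronc was 0.99 with adjusted p = 0.000817. DESeq2 called it too (adjusted p = 0.00103). Both fits called more genes in all, 86 higher and 44 lower of 7861 with the block and 20 higher and 8 lower with DESeq2. Under Ago1 RNAi the difference of Dronc between genotypes was within its error (-0.07, SE 0.13, adjusted p = 0.905). These comparisons share libraries.

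The IAP antagonists hid and rpr moved in opposite directions on the knockdown. hid rose from 3.21, 2.15 and 1.89 to 8.74, 4.8 and 4.76 CPM in WT cells (1.33, SE 0.40, adjusted p = 0.0156) and from 0.341, 0.262 and 0.112 to 1.05, 0.587 and 0.382 in dora cells (1.47, SE 0.56, adjusted p = 0.0456). The groups did not overlap in either genotype. The WT call was lost without the knockdown library of clone 1 (0.98, adjusted p = 0.0924) or the GFP library of clone 3 (1.19, adjusted p = 0.0608), and the dora call without the knockdown libraries of clones 1 and 2 (1.00, adjusted p = 0.175, and 1.52, adjusted p = 0.0682) or the GFP libraries of clones 2 and 3 (1.58, adjusted p = 0.0816, and 1.09, adjusted p = 0.163). rpr fell from 2.58, 0.775 and 2.95 to 0.458, 0.206 and 0.196 CPM in WT cells (-2.80, SE 0.65, adjusted p = 0.00354) and from 2.04, 0.916 and 2.92 to 0.196, 0.514 and 0.191 in dora cells (-2.78, SE 0.67, adjusted p = 0.00454). All knockdown libraries were below all controls, at 3 to 57 reads per library. hid stayed lower in dora than in WT cells under Ago1 RNAi (-3.23, SE 0.45, adjusted p = 0.00789), the only 1 of 8 genes called (0 higher, 1 lower) where 0.356% of genes were (0.216% lower), and without the knockdown library of dora clone 2 the call was lost (-3.18, adjusted p = 0.0598).

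Diap1 rose from 289, 294 and 261 to 398, 348 and 390 CPM in WT cells (0.43, SE 0.09, adjusted p = 0.00129) and from 316, 347 and 353 to 386, 404 and 399 in dora cells (0.23, SE 0.09, adjusted p = 0.0433). Dark gave 0.29 in WT (adjusted p = 0.0812, and 0.30 with adjusted p = 0.000902 with the clone as a block) and rose by 0.34 in dora cells (adjusted p = 0.0484). Dcp-1, the second effector caspase gene, gave 0.18 in WT (SE 0.12, adjusted p = 0.206) and rose by 0.32 in dora cells (SE 0.12, adjusted p = 0.0364), far below the change of Drice. In dora cells the calls on Diap1 and Dark ended without any 1 of the 6 libraries (adjusted p 0.0568 to 0.164 and 0.052 to 0.191), and that on Dcp-1 without 5 of the 6 (adjusted p up to 0.128), which left 3 to 4 genes called of 7. p53 did not pass in either (-0.11 and -0.14, adjusted p = 0.507 and 0.419).

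In the trigger lines none of the 7 tested genes was called in any of the 5 comparisons with WT, which share the 2 WT libraries. edgeR called 0.0128% of 7813 genes in the ago1 line, 0.0256% in the zfh1 line and 0% in each of the lines h, kah and wgn. At an unadjusted p under 0.05 was 1 of the 7 genes in each of the ago1 and zfh1 lines and 0 in the others. Of all 7813 genes, 1234 in the ago1 line and 799 in the zfh1 line were under that limit. DESeq2 called 0 of the 7 in each line. The changes ranged from -0.37 to 0.20 in the kah line, from -0.74 to 0.43 in h, from -0.37 to 0.64 in wgn, from -0.52 to 1.43 in ago1 and from -1.58 to 0.25 in zfh1. Dronc stood at 86.2 and 82.9 CPM in WT, 63.6 and 59 in zfh1, 74.4 and 68.2 in wgn, 71.3 and 88.4 in kah, 89.7 and 65.6 in ago1 and 71.6 and 67.7 in h. Both libraries were below WT in zfh1, wgn and h, and the ranges overlapped in kah and ago1. rpr varied most, at 0.745 and 2.26 CPM in WT against 7.56 and 0.653 in the 2 ago1 libraries. ago1 replicate 2, which has the 7.56, also had Dark at 152 CPM against 90.1 and 98.5 in WT, and a Diap1 level of 245 CPM against 451 and 445 in WT. Without ago1 replicate 3, Dark (0.69, adjusted p = 0.0419) and Diap1 (-0.87, adjusted p = 0.0158) passed in the fit that rests on that replicate alone.

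In dora[B] embryos the 3 caspase genes were higher than in wild type and Diap1 was lower. Over the mean of 3 times 3 of the 10 genes were called higher and 2 lower, where 42.5% of 11424 genes were called (17.8% higher, 24.7% lower). The median over the 10 was 0.09 and that over all genes -0.38, so a value near -0.38 is the typical difference in this comparison. Dronc stood at 99.2 and 108 CPM against 28 and 32 at 8-12 h, at 46.5 and 115 against 17.6 and 19.7 at 12-16 h and at 54.6 and 36.7 against 22.7 and 21.5 at 16-20 h (1.65, SE 0.22, adjusted p = 0.000165). Drice stood at 125 and 116 CPM against 70.8 and 83.5, at 89.6 and 132 against 28.9 and 26.4 and at 113 and 76.6 against 23.9 and 16.5 at the same times (1.62, SE 0.17, adjusted p = 3.56e-05). Dcp-1 stood at 170 and 148 CPM against 102 and 117, at 74.4 and 112 against 41 and 40.3 and at 103 and 59.2 against 33.7 and 26 (a mean difference of 1.06, SE 0.17, adjusted p = 0.000746). Every mutant library was above every wild-type library of its age in these 3 genes, and how many of all genes separate so was not counted. The 3 calls on the mean held without any 1 of the 12 libraries.

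Diap1 stood at 350 and 343 CPM in dora[B] against 487 and 524 in wild type at 8-12 h, at 233 and 172 against 276 and 354 at 12-16 h and at 136 and 214 against 318 and 364 at 16-20 h. The mutant libraries were below the wild types at each age (-0.71, SE 0.14, adjusted p = 0.00255, held without any 1 library). The median over all genes was -0.38, so part of this difference is typical of the comparison. The IAP antagonists did not follow the caspases. hid gave 0.10 (SE 0.15) and rpr 0.09 (SE 0.17), while grim (-0.54, SE 0.19, adjusted p = 0.0352) was called lower and skl (-0.42, adjusted p = 0.055) was not. The values of grim and skl lie near the median over all genes. grim stood at 12.5 and 14.7 CPM in the mutant against 20.9 and 21.9 in wild type at 8-12 h, at 11.7 and 11.5 against 15.6 and 22.2 at 12-16 h and at 6.27 and 6.5 against 6.46 and 8.87 at 16-20 h. The groups were apart at 8-12 and 12-16 h and overlapped at 16-20 h. Its call was lost with RLE scaling (-0.47, adjusted p = 0.0697), without the filter (-0.37, adjusted p = 0.321), with DESeq2 (-0.46, adjusted p = 0.0514) and without 11 of the 12 libraries in turn (adjusted p up to 0.438). Without dora[B] library 2 of 16-20 h, hid was called higher (0.49, adjusted p = 0.00944) and p53 too (0.97, adjusted p = 0.0222). Dark gave -0.10 (SE 0.12). p53 gave 0.62 (SE 0.28, adjusted p = 0.0903), and was called with DESeq2 (0.72, adjusted p = 0.0483), without the filter (0.78, adjusted p = 0.0297) and without mutant library 1 of 12-16 h (1.05, adjusted p = 0.0127). It stood at 18.7 and 29.5 CPM against 12.8 and 9.09 at 8-12 h and 7.87 and 5.84 against 7.77 and 4.65 at 16-20 h, where the libraries overlapped.

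**Figure D3:**
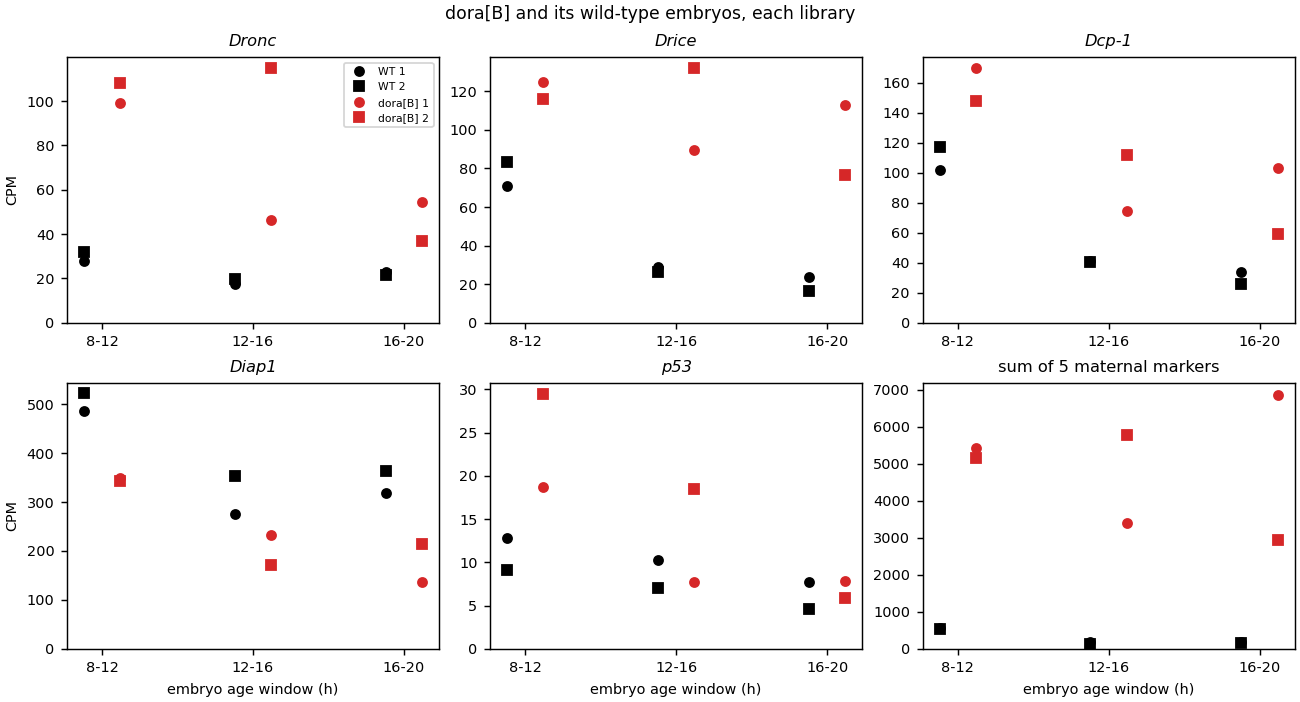
CPM (vertical axis, starting at 0) of Dronc, Drice, Dcp-1, Diap1 and p53 and the summed CPM of 5 maternal mRNAs in each dora[B] (red) and wild-type (black) library by embryo age window in hours; circles are library 1 and squares library 2. Dronc, Drice and Dcp-1 are above wild type at every age, Diap1 is below it, and the maternal sum is 2950 to 6850 CPM in the mutant against 125 to 555 in wild type.

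At the single ages the calls rested more on the fit. At 8-12 h Dronc was called (1.79, SE 0.38, adjusted p = 0.0153; 1 higher and 0 lower of 10, background 6.87%, 6.68% higher), with Drice at 0.65 (adjusted p = 0.227). The Dronc call ended with RLE scaling (1.64, adjusted p = 0.0528) and without any 1 of the 4 libraries (1.67 to 1.90, adjusted p 0.218 to 0.344). In a fit to these 4 libraries alone Drice (0.64, adjusted p = 0.00717), Dcp-1 (0.54, adjusted p = 0.0137), p53 (1.14, adjusted p = 0.0161) and Diap1 (-0.54, adjusted p = 0.00645) were called too. That fit called many more genes in all, 1979 higher and 953 lower of 9698. At 12-16 h Dronc (2.12, adjusted p = 0.004), Drice (2.00, adjusted p = 0.00182) and Dcp-1 (1.20, adjusted p = 0.0167) were called (3 higher, 0 lower, background 24.0%, 11.3% higher). At 16-20 h Drice (2.23, adjusted p = 0.000873) and Dcp-1 (1.44, adjusted p = 0.00905) were higher and Diap1 was lower (-0.96, adjusted p = 0.0248), with a background of 15.6% (10.2% higher, 5.44% lower), and Dronc gave 1.05 (adjusted p = 0.0742), which passed with DESeq2 (1.18, adjusted p = 0.033) and without the filter (1.28, adjusted p = 0.00462). A fit to the 4 libraries of that age called 0 of all 10546 genes. In it Drice (2.73, adjusted p = 0.122), Dcp-1 (adjusted p = 0.135) and Diap1 (-0.53, adjusted p = 0.402) did not pass either. Single libraries decided several of these calls, and the counts without 1 of them ran from 0 to 4 at 12-16 h and from 0 to 5 at 16-20 h. At 12-16 h all 3 were lost without wild-type library 2 (Dronc 2.64, Drice 2.35 and Dcp-1 1.61, adjusted p = 0.0652, 0.0631 and 0.104), and Dronc and Dcp-1 without wild-type library 1 (adjusted p = 0.0548 and 0.106) or mutant library 2 (adjusted p = 0.0649 and 0.196). At 16-20 h Drice, Dcp-1 and Diap1 were lost without wild-type library 1 (adjusted p = 0.0521, 0.0909 and 0.119) or 2 (adjusted p = 0.072, 0.164 and 0.314), and Dcp-1 and Diap1 without mutant library 1 (adjusted p = 0.0992 and 0.186). Without mutant library 2, Dronc (1.76, adjusted p = 0.0139) and hid (1.27, adjusted p = 0.00218) were called higher there. None of the 3 caspase genes passed a test of the difference between ages; that of Drice between 16-20 and 8-12 h was 1.58 (adjusted p = 0.084).

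Several other groups of genes differed from wild type in dora[B] as well. On the mean 42.5% of all genes were called (17.8% higher, 24.7% lower), with a median of -0.38, so a list with some genes called is common here. Of the 5 maternal mRNAs, bcd (6.54), osk (5.37), smg (4.56) and CycB (4.58) were called higher on the mean and nanos was not (-0.70). Their sum was 5430 and 5170 CPM at 8-12 h, 3410 and 5770 at 12-16 h and 6850 and 2950 at 16-20 h in the mutant libraries. In wild type it was 555 and 527, 175 and 125, and 173 and 150. At 8-12 h the mutant library with the slightly higher sum had the higher Drice and Dcp-1 but the lower Dronc. At 12-16 h the mutant library with the higher sum also had the higher Dronc, Drice and Dcp-1, and at 16-20 h so did the other mutant library. In wild type Dronc and Drice were themselves higher in every library of 0-4 h, those richest in these maternal mRNAs, than in any later one, and Dcp-1 in those of 2-4 h. All 5 muscle genes and all 5 neuron and glia genes of the marker lists were lower on the mean, with a summed muscle level of 14800 to 29000 CPM at 16-20 h against 40400 to 40600. Of 13 hemocyte genes 7 were lower and 0 higher, with sums at 12-16 h of 3130 to 4080 CPM against 7720 to 8550. Of 5 epidermis and cuticle genes 2 were lower and 0 higher (766 to 795 CPM against 1200 to 1240 at 8-12 h), and of 4 germline genes 2 were higher and 0 lower (35.5 to 43.8 CPM against 10.3 to 11.6 at 8-12 h). The part of any of these in the caspase and Diap1 differences was not tested.

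In dora[A] embryos no apoptosis gene passed the edgeR test, and nor did any other of the 11153 genes (0% called) on the mean of 3 times. Of the 10, 4 were at an unadjusted p under 0.05 (727 of all genes were), and DESeq2 called 1 of them and 18 genes in all. The median over the 10 was 0.35 against 0 over all. The gene that DESeq2 called was rpr. It stood at 56.1 and 58.5 CPM against 45.4 and 37.2 in wild type at 8-12 h, at 44.7 and 34.9 against 26.1 and 16 at 12-16 h and at 16.4 and 11.8 against 8.08 and 5.13 at 16-20 h. Every mutant library was above its wild types (edgeR 0.83, SE 0.19, adjusted p = 0.642; DESeq2 0.82, adjusted p = 0.0394). skl was not called (0.56, SE 0.23, adjusted p = 0.739). Its nearest libraries were almost level at 8-12 h (39.2 and 44.3 CPM against 39.1 and 37.7) and 12-16 h (43.6 and 44.8 against 42.7 and 26.2). At 16-20 h they were further apart, at 24.6 and 18.3 against 13.5 and 5.02. hid gave 0.60 (SE 0.23, adjusted p = 0.739) and grim 0.45 (SE 0.27). At 8-12 h grim was lower in both mutant libraries (16 and 15.9 CPM against 21.5 and 18.6), and at 16-20 h all 4 IAP antagonists were above wild type in both, with differences of 0.89 for hid, 1.09 for rpr, 1.31 for grim and 1.21 for skl, none of which was called. At single ages edgeR called 0 of the 10, where 0.00897% of genes were called at 8-12 h, 1 gene that was lower, and 0% at the later ages.

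The first dora[A] library stood apart at 8-12 and 12-16 h in its maternal mRNAs, at 2060 and 1710 CPM against 414 and 143 in the second library and 290 to 1090 in wild type. It also had the higher Dronc, at 58.7 against 34.2 CPM at 8-12 h and at 46.8 against 18.1 at 12-16 h, while wild type had 34.7 and 32.4, and 22.6 and 19.5. Drice (95.1 against 70.5 CPM, and 50.5 against 32.8) and Dcp-1 (144 against 98.3, and 70.5 against 44.9) showed the same order of the mutant libraries. Leaving out these 2 libraries was an alternative chosen after seeing the data. It removes the higher mutant values of Dronc, Drice and Dcp-1, so lower estimates for them follow from the choice and test no cause. Dronc then went from 0.34 to -0.10, Drice from 0.36 to 0.15, Dcp-1 from 0.29 to 0.05 and p53 from -0.24 to -0.77. The values of rpr, skl and hid were 0.76, 0.59 and 0.48. None passed in either form. Diap1 (-0.03, SE 0.09) and Dark (0.02, SE 0.12) differed least from wild type.

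**Figure D4:**
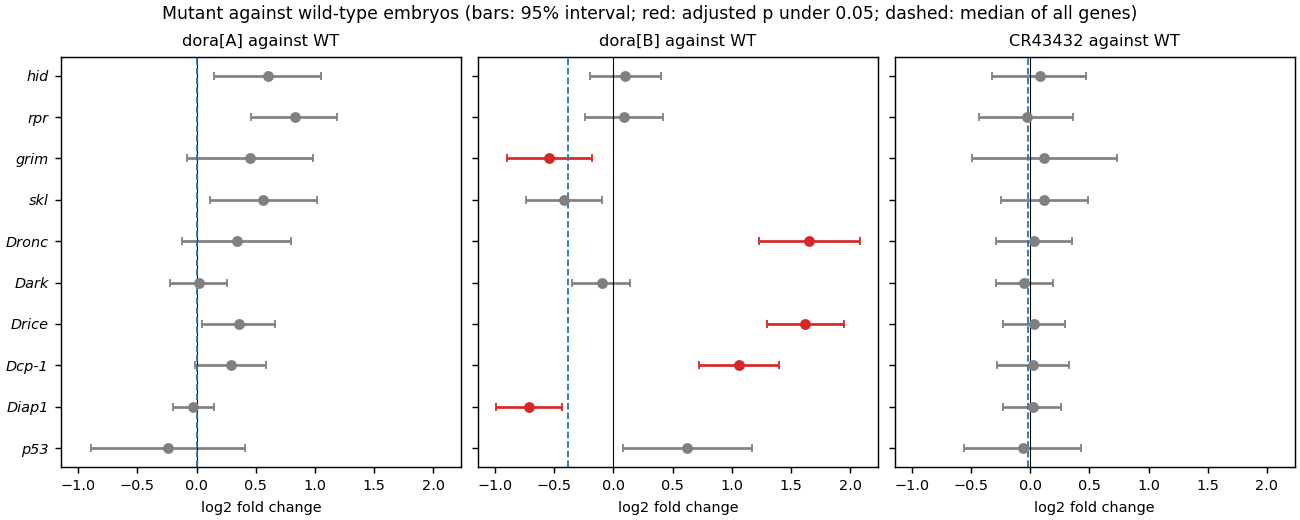
Log2 fold change of the 10 apoptosis genes (horizontal axis) in dora[A], dora[B] and CR43432 embryos against their wild types, averaged over 8-12, 12-16 and 16-20 h for the dora alleles and over 8-12 and 12-16 h for CR43432; points are estimates, bars 95% intervals, red marks an adjusted p under 0.05 and the dashed line is the median of all genes. Called genes appear in dora[B] alone, and in CR43432 the estimates lie between -0.06 and 0.12.

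In CR43432 mutant embryos no apoptosis gene was called different from wild type in any test. CR43432 is a long noncoding RNA gene of the fly. edgeR called 0 of the 10 on the mean of 8-12 and 12-16 h, with 0 at an unadjusted p under 0.05 and 0 by DESeq2, where 0.0698% of 11457 genes were called, and 0 at 8-12 h (0.0436%) and at 12-16 h (0.0175%). The mean differences ran from -0.06 for p53 to 0.12 for grim and skl, with 2 libraries per genotype at each age. The 95% interval was -0.29 to 0.35 for Dronc, -0.23 to 0.29 for Drice and -0.23 to 0.26 for Diap1, and it was widest for grim, at -0.49 to 0.73. hid stood at 209 and 212 CPM against 161 and 196 at 8-12 h and at 57.9 and 48.2 against 53.6 and 58.6 at 12-16 h. Dronc stood at 45 and 40 CPM against 32 and 48, and at 18 and 19.9 against 19.7 and 18.9, overlapping at both ages. At 16-20 h, with a lone library per genotype and no test, hid was 10.2 CPM against 11.8, Dronc 26.2 against 22.3, Drice 24.7 against 21.1 and Diap1 318 against 288.

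Over the 20 embryo groups the genes' patterns can be compared by Pearson's r of group mean log2(CPM + 1), centred within each of the 3 sets. This is a description, since groups of a set share libraries' scaling and ages. grim and skl followed each other most closely (0.98), then Drice and Dcp-1 (0.97), hid and Dark (0.95), rpr and skl (0.92), and hid and rpr, and Dronc and Drice (0.91 each), and the lowest value was that of Dronc and Diap1 (-0.58). The map of centred levels shows these blocks. Among 8554 other genes that averaged 5 CPM or more, the closest to hid were ed (0.991) and Wnt5 (0.984), to rpr l(3)neo38 (0.959) and CG10479 (0.957), to grim otk (0.977) and miple2 (0.973), and to skl wb (0.977) and how (0.96). The closest to Dronc were ebi (0.989) and Tnpo (0.985), to Dark Traf4 (0.988) and sim (0.986), to Drice CG6962 and Rcc1 (0.994 each), to Dcp-1 mip130 and Jasper (0.994 each), to Diap1 CG14855 (0.977) and sd (0.975) and to p53 CG14805 (0.929) and Trc8 (0.924).

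**Figure D5:**
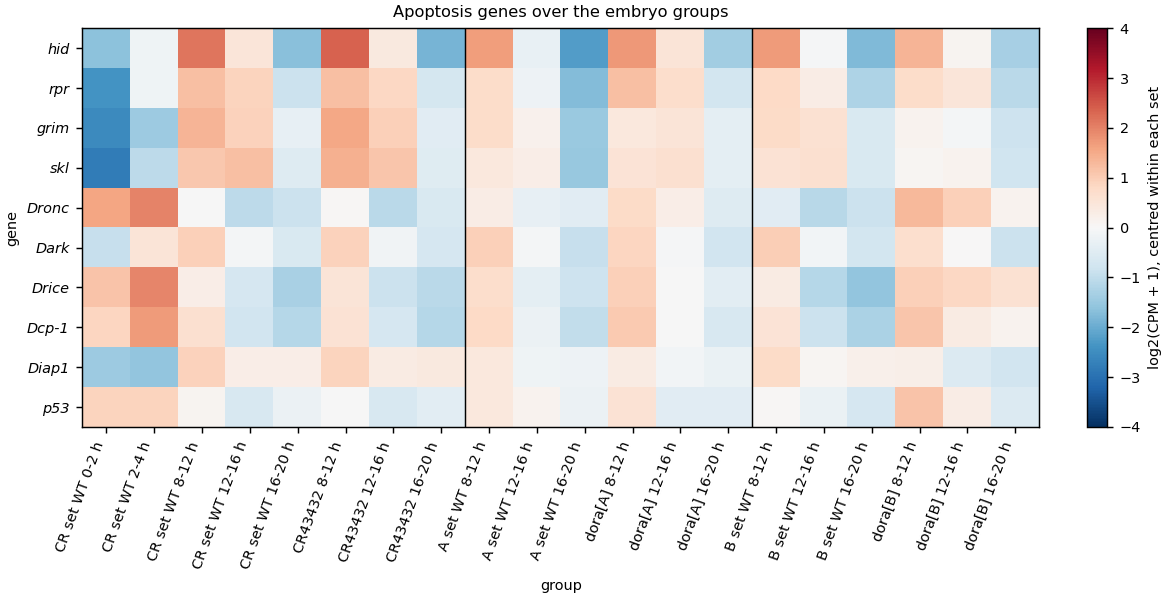
Group mean log2(CPM + 1) of the 10 apoptosis genes (vertical axis) in the 20 embryo groups (horizontal axis), centred within the CR43432, dora[A] and dora[B] sets, which black lines separate; red is above and blue below a gene's mean in its set. hid, rpr, grim and skl are red at 8-12 h and blue at 0-2 h in the CR43432 set, and Dronc, Drice and Dcp-1 are red at 0-4 h in that set and are redder in dora[B] than in its wild type.

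Other genes of cell death were read from lists chosen with earlier results of these data known. On Ago1 knockdown in WT cells, where 54.0% of all genes were called (25.6% higher, 28.4% lower), of 4 tested genes of the Bcl-2 and mitochondrial list 0 rose and 3 fell, among them Debcl (-0.94), which encodes a Bcl-2 family protein, and the serine protease gene HtrA2 (-0.62). Of 8 tested p53 target genes 0 rose and 5 fell, Ku80 (-1.11), Irbp (-0.92) and RnrL (-0.92) among them, and of 8 corpse clearance and DNA fragmentation genes 3 rose and 0 fell, with Drep4 (1.41) the most changed. Of 2 other caspase genes Dredd rose (0.95) and Strica fell (-0.52), and of 13 TNF and JNK pathway genes 5 rose and 3 fell, with the adaptor gene Traf6 (1.81) first. In dora cells, with 51.2% of all genes called (24.6% higher, 26.7% lower), the counts were 0 and 3 for the Bcl-2 list (Debcl -1.40), 0 and 5 for the p53 targets (Ku80 -1.15), 3 and 0 for clearance and 5 and 2 for TNF and JNK (Traf6 1.50). In untreated dora clones, where 2.73% of all genes were called, the TNF receptor gene wgn fell (-0.84, adjusted p = 0.032), the JNK kinase gene hep rose (0.65, adjusted p = 0.0352) and Ced-12 rose (0.60, adjusted p = 0.0498). In dora[B] on the mean, where 42.5% of all genes were called (17.8% higher, 24.7% lower) and the median was -0.38, 5 of 8 DNA damage genes rose and 0 fell, with mus304 (2.86), grp (0.81), lok (0.80) and tefu (0.75), and of 14 TNF and JNK genes 2 rose and 10 fell, Jra (-0.97) and bsk (-0.66) among them. Of 7 other IAP and ubiquitin genes 3 rose, with Det (3.10) and ntc (2.86), and 3 fell, with Bruce (-0.50) and Ubr3 (-0.49). No gene of these lists was called in dora[A], CR43432 or the trigger lines.

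Some microRNAs are known to repress these genes: bantam targets hid, the miR-2, miR-6, miR-11, miR-13 and miR-308 family targets hid, rpr, grim and skl, and miR-14 is known as a suppressor of cell death. Of 10 listed arms 8 matched by name. In S2 dora clones none of the 8 was called by edgeR (16.1% of 118 arms were) or by DESeq2. At an unadjusted p under 0.05 in edgeR were 1 of the 8 and 35 of the 118 arms. miR-308-3p stood at 460, 474 and 440 CPM in dora clones and at 912, 741 and 737 in WT, with no overlap (-0.80, SE 0.32, adjusted p = 0.123), and it was called in a fit to these 6 libraries (-0.81, adjusted p = 0.0102). In dora[A] embryos miR-2b-3p was higher (0.33, SE 0.04, adjusted p = 0.000173) and miR-14-3p lower (-0.40, SE 0.06, adjusted p = 0.00186), 1 in each direction where 17.3% of 226 arms were called (12.4% higher, 4.87% lower), and both held without any 1 library. With the replicate number as a block bantam-3p (-0.14, adjusted p = 0.00312) and miR-6-3p (-0.12, adjusted p = 0.0117) were lower there too. In dora[B] 1 was higher and 4 lower, where 21.8% of 220 arms were (12.7% higher, 9.09% lower) and the median over all arms was -0.12. miR-14-3p stood at 63700 and 81200 CPM in dora[B] against 122000 and 150000 in wild type at 16-20 h, and at 24000 and 36000 against 24400 and 31500 at 8-12 h. Those of the later age did not overlap and those of the earlier did (-0.43 on the mean, SE 0.12, adjusted p = 0.0307). bantam-3p (-0.22, adjusted p = 0.00962), miR-6-3p (-0.19, adjusted p = 0.00549) and miR-13a-3p (-0.29, adjusted p = 0.0489) were lower and miR-2b-3p higher (0.27, adjusted p = 0.0239), the last of which did not pass without any 1 of the 12 libraries (adjusted p 0.0729 to 0.914), with RLE scaling (adjusted p = 0.0772) or with DESeq2 (adjusted p = 0.0574). Without the filter none of the 4 lower arms passed: bantam-3p gave -0.16 (adjusted p = 0.134), miR-6-3p -0.14 (0.21), miR-13a-3p -0.24 (0.172) and miR-14-3p -0.38 (0.0584). miR-6-3p also missed with DESeq2 (-0.18, adjusted p = 0.054), and miR-13a-3p with RLE scaling (-0.28, adjusted p = 0.0853) and without wild-type library 1 of 8-12 h (-0.32, adjusted p = 0.109). The share of these changes in the mRNA levels was not tested.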

How the data were processed

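Poly(A) RNA and small RNA were sequenced from S2 cells and embryos; the authors deposited raw read counts per gene or microRNA arm, and these counts were used without rescaling. Per the submitters' processing notes, STAR 2.4 and HTSeq were used with dm6; the sources used here give neither the HTSeq version nor the strand setting of the counting. Entries that are not genes made up 6.02% to 20.5% of the mRNA counts and were removed, which left 17477 genes, 17226 with a symbol in the gene-name reference. Small RNA libraries held 0.274 to 11.5 M counted reads. The RNAi set was made with another library kit and paired-end reads than the others, per the labels' protocols.

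Counts were fitted per table with edgeR 4.0.16 in R 4.3.3 (limma 3.58.1; quasi-likelihood, robust, TMM scaling, filterByExpr on groups, 1 coefficient per group); SE was taken as the size of the log2 fold change over the root of F. In all, 29 mRNA and 3 small RNA comparisons were made, with p-values adjusted over all features tested in each. The code was tested on simulated data with known log2 changes of 1 or 2. Of the changes of 1, 32% were recovered in the kah line, 35% in CR43432 and 53% to 71% in the other comparisons simulated. Of the changes of 2, 76% to 90% were recovered. False calls made up 10.1% of calls for untreated S2 dora clones against WT and 2.88% to 5.93% in the others. A gene not called in the trigger lines or CR43432 may therefore still differ. No pair within a group agreed to within sampling noise (chi-square per feature at least 15.02). Intervals on read counts cover counting error only. Where nothing in the labels says that clones or lines are independent, p-values measure only the spread between these libraries.

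The 10 genes were named in every comparison. From other lists the called genes with the 4 smallest adjusted p could be named, and per gene the 2 with the nearest pattern. Genes and lists were chosen with earlier results of these data known. In the RNAi set knockdowns of the same clone correlated at 0.52 to 0.69 in their deviations from group means and were taken as pairs, from the clone numbers in the labels; for embryos the series text pairs mutants with wild types. Main values hold no pair term. Alternatives were DESeq2 1.42.0, RLE scaling, no filter, a replicate block, fits restricted to the groups compared, and leaving out each library. The wgn column numbered 1 was placed by its group alone. Sequences were not used here.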

Additional observations from a re-analysis of the deposited data

How the results depend on the processing

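Of the values of single genes under the alternatives, 2799 kept direction and side of the threshold, 144 lost and 44 gained a call, and 0 reversed; of the counts of called genes 286 stayed within 1.5 times and 49 moved. In untreated S2 dora clones the count of 1 became 2 without the filter (124 genes higher and 259 lower of 11364) and 2 with DESeq2 (389 higher and 448 lower of 7294). With the replicate number as a block it was 0, where Dronc gave -0.87 (adjusted p = 0.0582); same-numbered clones correlated at -0.26, -0.06 and 0.17, so they share only a number. The difference of the Ago1 effects went from 0 to 1 (Dronc) with DESeq2 (20 genes higher and 8 lower of 7861). With the clone block it also went to 1 (86 higher and 44 lower). The dora[A] count went from 0 to 1 with DESeq2 (7 genes higher and 11 lower of 11153). In dora[B] the 8-12 h count of 1 became 0 with RLE scaling and 5 in a fit to the compared groups, which called 1979 of 9698 genes higher and 953 lower. The 16-20 h count of 3 became 0 in such a fit, which rests on 4 libraries and called 0 of 10546 genes. The small RNA counts went from 0 to 1 in S2 cells in a fit to the compared groups, from 2 to 4 in dora[A] with the replicate block, and from 5 in dora[B] to 3 with RLE scaling, 1 without the filter, where the 4 lower arms were lost, and 3 with DESeq2. The replicate block changed no other count by over 1.5 times. No paired analysis was possible for the ago1, h and zfh1 lines because each shares fewer than 2 replicate numbers with WT, nor for wgn because a column has no sample number.

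Without 1 library the counts ran from 0 to 1 in S2 dora clones, 4 to 6 and 3 to 4 for Ago1 RNAi in WT and dora cells, 2 to 2 and 0 to 1 for dora against WT under GFP and Ago1 RNAi, 0 to 2 in the ago1 line and 0 in the other trigger lines, dora[A] and CR43432. In dora[B] they ran from 4 to 6 on the mean, 0 to 0 at 8-12 h, 0 to 4 at 12-16 h and 0 to 5 at 16-20 h. In wild-type embryos they ran from 5 to 7, 8 to 9 and 5 to 6 at the steps of the CR43432 set, from 3 to 4 and 1 to 4 in the dora[A] set and from 1 to 4 and 0 to 3 in the dora[B] set. The small RNA counts ran from 0 to 0 in S2 cells, 2 to 4 in dora[A] and 3 to 4 in dora[B]. A group left with 1 library is assumed to vary like the others, and the filter then keeps more genes. Depth limits grim, skl and hid in S2 cells.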
